A study of Homo sapiens with 4 samples.

Results

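The 9 genes YAP1, WWTR1, TEAD1, LATS2, AMOTL2, CCN1, CCN2, ANKRD1 and AXL belong to the YAP and TEAD pathway, and accessible chromatin near them was compared between MCF10A cells and MCF10A cells carrying an oncogenic HRas. The genes were chosen by name as a small set of pathway components and targets, by a rule that uses no measured value although earlier results of these data were known, and are 9 of the 20098 protein-coding genes on the autosomes and X of the annotation used. A stretch of accessible chromatin was counted for a gene when it touched the gene body or lay within 100 kb of its transcription start site (TSS). By this rule 87 of 60886 accessible regions were near the 9 genes.

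YAP1 and its paralog TAZ, the product of WWTR1, are transcriptional co-activators that do not bind DNA themselves. They reach DNA through TEAD proteins such as TEAD1, which recognise a short core sequence, and TEAD sites in enhancers often lie beside sites of the AP-1 factors. LATS2, one of the Hippo kinases, phosphorylates YAP1 and TAZ and keeps them out of the nucleus, and angiomotin-like proteins such as AMOTL2 bind and restrain them. CCN1 and CCN2, which encode secreted matricellular proteins, ANKRD1, which encodes an ankyrin repeat protein, and AXL, which encodes a receptor tyrosine kinase, are widely used as target genes of the pathway. LATS2 and AMOTL2 are themselves targets and act as negative feedback. In mammary epithelial cells the pathway is known for its response to cell density, attachment and matrix stiffness.

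MCF10A is an immortalized, nontransformed line of human mammary epithelial cells, and 2 libraries of the parental cells (MCF10A replicates 1 and 2) and 2 of the transformed cells (G12V replicates 1 and 2) were made by ATAC-seq, in which a transposase cuts and tags open chromatin. The transformed cells had received a vector for HRas with the G12V change by viral transduction, along with a GFP vector used to follow transduction, and had grown out after an initial arrest. After transduction, hygromycin was added to select cells with the HRas vector. The labels give a single medium for all libraries, with EGF, insulin, cholera toxin and hydrocortisone. All cells derive from a single line, the study's methods name the replicates biological, and the sources used here do not say whether they were separate transductions, so p-values measure only the spread between these libraries.

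In MCF10A, 12902 peaks were deposited for replicate 1 and 34484 for replicate 2, and in G12V 14057 for replicate 1 and 46698 for replicate 2. List length thus differed more between replicate numbers than between cell types. Read counts were not used here, the sequencing depth behind each list is unknown, and a missing peak means only that a locus did not pass the peak caller in that library. Each peak is given below as a score percentile, its rank among all peaks of its own library from 0 to 100, because the raw scores depend on depth. At the promoter of the endogenous HRAS gene a peak was called in each MCF10A library, at 42.2 in replicate 1 and 26.6 in replicate 2, and in neither G12V library. These 2 peaks did not overlap each other, and the introduced copy came on a vector, so the endogenous promoter checks no label. Of 7 basal mammary epithelial markers, 4 had a promoter peak in at least 1 library, where 53.1% of protein-coding promoters had one. They were KRT17 (MCF10A replicate 1 only), ITGB4 (both MCF10A libraries only, at 10.4 and 74.3), LAMB3 (3 libraries) and EGFR (replicate 2 of both cell types only). KRT5, KRT14 and CDH1 had none in any library. The count is near the background share and does not identify a cell type. Among markers of other cells, PTPRC and CD34 had none, and COL1A1 had one in 3 libraries.

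Accessible regions near the 9 genes were found in every library. MCF10A replicate 1 had a peak in 18 of the 87 regions, MCF10A replicate 2 in 42, G12V replicate 1 in 24 and G12V replicate 2 in 67. Relative to list length these loci took 14.7 and 13 of every 10000 peaks in MCF10A replicates 1 and 2, and 17.8 and 14.6 in G12V replicates 1 and 2. The means were 13.9 ± 1.19 in MCF10A and 16.2 ± 2.28 in G12V (SD, n = 2). The ranges of the groups overlapped, the difference of 2.29 gave p = 0.667 in an exact two-sided permutation test, and the smallest p that 2 against 2 libraries can give is 0.33.

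Regions with calls in both replicates of a single cell type were few. A region was termed gained when G12V replicates 1 and 2 each had a peak there and the MCF10A replicates had none, and lost in the opposite case. Near the 9 genes 4 regions were gained and 4 were lost, each 4.6% of 87 (95% Wilson interval 1.8 to 11.2, counting error only). Among all 47482 regions near protein-coding genes 3.18% were gained and 2.00% were lost, both inside that interval. A further 4 regions had a peak in all 4 libraries, 4.6% against 9.21% of all regions near protein-coding genes. A single library accounted for 43 regions, 49.4% against 54.5%, and 28 of these 43 were from G12V replicate 2, the library with the longest list. The remaining regions were called in 3 libraries (12, 13.8% against 12.8%) or in replicate 2 of both cell types only (16, 18.4% against 16.7%). Others were called in 1 library of each cell type with different replicate numbers, here termed crossed (4, 4.6% against 1.52%). Crossed regions, which follow neither cell type nor replicate number, were thus as many as the gained or the lost. Their background share lay below the Wilson interval of 1.8 to 11.2.

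**Figure D1:**
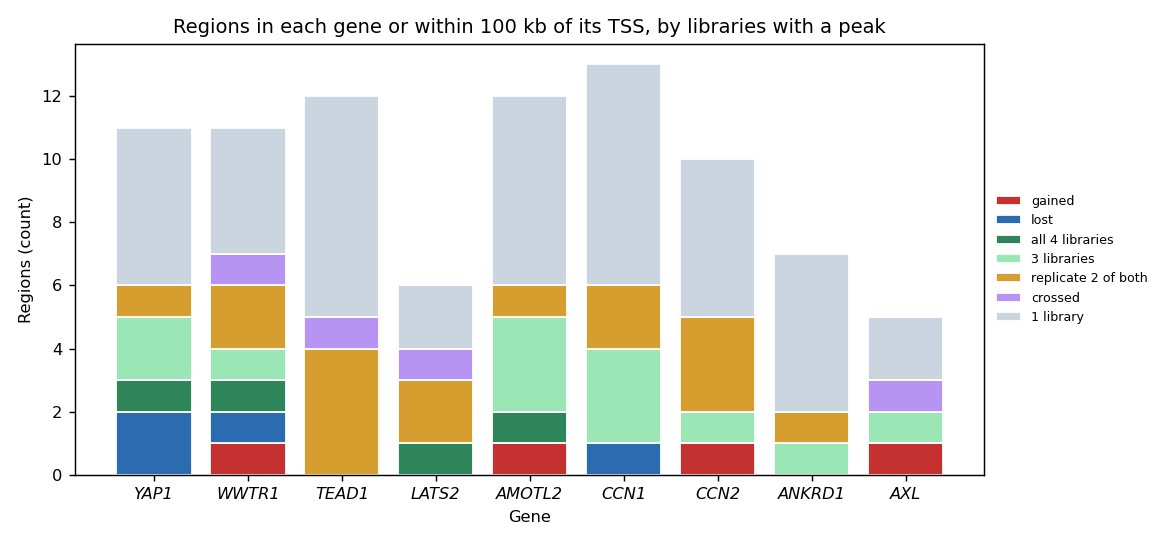
Each bar is a gene and its height the number of accessible regions in the gene or within 100 kb of its TSS, with colours for the libraries that had a peak. Single-library regions (43 of 87) are the largest class, and gained regions (4) stand at WWTR1, AMOTL2, CCN2 and AXL while lost regions (4) stand at YAP1, WWTR1 and CCN1.

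By gene, CCN1 had the most regions (13), followed by TEAD1 and AMOTL2 (12 each), YAP1 and WWTR1 (11 each), CCN2 (10), ANKRD1 (7), LATS2 (6) and AXL (5). The median of 11 compares with 8 for 35 other pathway genes and 6 for all protein-coding genes, and the long bodies of TEAD1, WWTR1 and YAP1 hold most of their own regions. Promoters, taken as 1000 bp upstream to 500 bp downstream of the TSS, made up 9 of the 87 regions. The other 78 were distal, 31 of them in the gene and 47 outside it. Of the distal regions 6 lay at the promoter of another gene (CFAP300, COMMD2, HNRNPUL1, HTR7, RPP30 and SAP18). Regions near the 9 genes had a median width of 625 bp, against 547 bp for all regions.

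**Figure D2:**
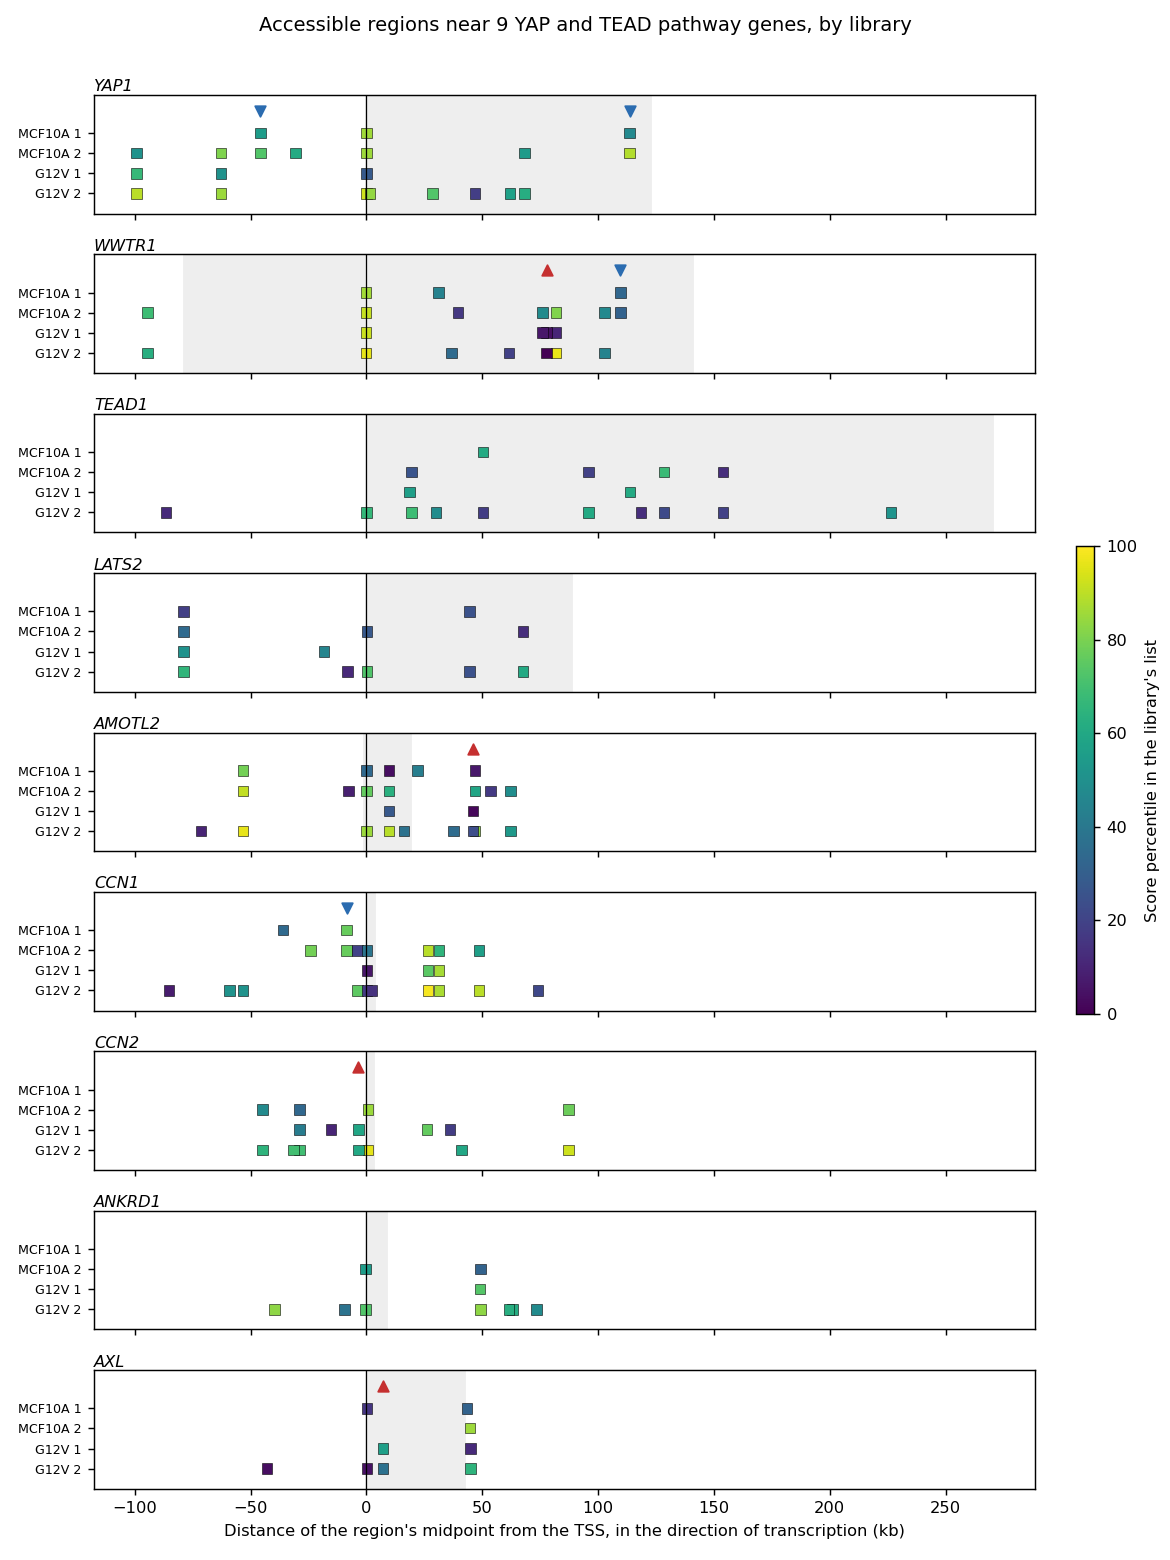
Each panel is a gene, the horizontal axis gives distance from the TSS in kb in the direction of transcription, each row is a library and each square an accessible region coloured by score percentile from 0 to 100. Grey marks the gene, red upward triangles the 4 gained regions and blue downward triangles the 4 lost regions, and G12V replicate 2 has the most squares (67) and MCF10A replicate 1 the fewest (18).

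All 9 promoters had a peak in at least 1 library, against 53.1% of protein-coding promoters. They had one in 4 of 9 cases in MCF10A replicate 1 (background 22.6% of protein-coding promoters), 7 of 9 in MCF10A replicate 2 (44.7%), 3 of 9 in G12V replicate 1 (24.7%) and 9 of 9 in G12V replicate 2 (47.1%). Only the promoters of YAP1 and WWTR1 were called in all 4 libraries, where 15.4% of protein-coding promoters were. Those of CCN2, ANKRD1 and LATS2 were called in replicate 2 of both cell types only, a pattern found at 11.5% of protein-coding promoters. None of the 9 promoters was gained or lost, and the background for these classes was 0.876% and 0.498%.

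Among the co-activators, the YAP1 promoter (chr11:101980641-101981995) had score percentiles of 85.8 and 85.5 in MCF10A replicates 1 and 2, and of 28.1 and 92.2 in G12V replicates 1 and 2. The MCF10A values lay together and between those of the G12V libraries, so the groups overlapped and G12V replicate 1 was the low value. The WWTR1 promoter (chr3:149375243-149376873) stood at 86.1 and 91.4 in MCF10A and at 92.1 and 95.8 in G12V. The lower G12V value was just above the higher MCF10A value there, and 2 libraries per group allow no test that could pass 0.05. TEAD1, the DNA-binding partner, had a promoter peak (chr11:12695506-12696370) in G12V replicate 2 only, at 66.6.

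Among the feedback regulators, the LATS2 promoter (chr13:21634932-21636210) was at 27.7 in MCF10A replicate 2 and at 72.5 in G12V replicate 2, with no peak in the replicate 1 libraries. The AMOTL2 promoter (chr3:134092182-134094415) was at 33.9 and 75.9 in MCF10A replicates 1 and 2 and at 85.1 in G12V replicate 2, with no peak in G12V replicate 1. For both genes the G12V replicate 2 value was the highest, and that library has the longest list. When only regions common to both replicate 2 libraries were ranked, the AMOTL2 promoter stood at 65.8 in MCF10A and 70.2 in G12V. The LATS2 promoter stood at 17.5 and 50.4.

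Target genes differed from one another. The CCN2 promoter (chr6:132270921-132272942) was among the best-scoring regions of both replicate 2 libraries, at 84.8 in MCF10A and 95.9 in G12V. The ANKRD1 promoter (chr10:92680928-92681532) was at 54.7 and 73 in the same libraries. The CCN1 promoter (chr1:86046040-86047412) was at 38.7 in MCF10A replicate 2, 5.92 in G12V replicate 1 and 17.1 in G12V replicate 2. It was the only promoter of the 7 called in both replicate 2 libraries that had the lower percentile in G12V. Of all 22104 regions common to these libraries, 63.1% had the higher percentile in G12V, whose list is the longer. The AXL promoter (chr19:41725130-41725800) was near the bottom of both lists that held it, at 15.3 in MCF10A replicate 1 and 4.66 in G12V replicate 2.

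**Figure D3:**
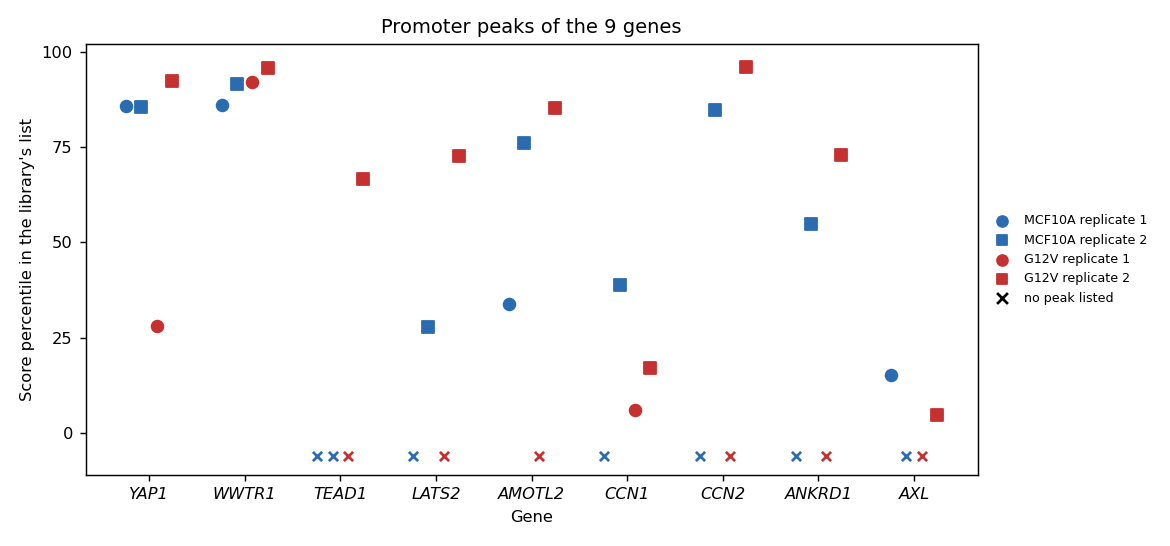
The vertical axis is the score percentile of the promoter peak in its library's list and the horizontal axis the gene, with MCF10A in blue, G12V in red, replicate 1 as circles, replicate 2 as squares and crosses where no peak was listed. YAP1 and WWTR1 are the genes without a cross, and G12V replicate 2 (red squares) has a peak at all 9 promoters.

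The 250 bases upstream of each TSS were searched for the TEAD core GGAATG on either strand. It was found at 6 of the 9 genes (66.7%), against 9.87% of all 20098 protein-coding genes, and at least 2 matches were found at CCN2 and ANKRD1, against 0.677%. The AP-1 pattern TGACTCA was found at 0 of 9, against 3.06%. YAP1, TEAD1, CCN1 and AMOTL2 had 1 match each and WWTR1, AXL and LATS2 none in this stretch. The 9 genes include textbook TEAD targets, so this comparison was not independent of how they were chosen. A match describes letters only and does not show that a factor was bound. The stretches of 4 genes are printed from GRCh37 (hg19) to show where the cores lie, 5′ to 3′ on the strand of the gene and ending at the base before the TSS, with matches in capitals (CATTCC is the core on the other strand). They are chr11:101980928-101981177 (plus strand) for YAP1, chr1:86046194-86046443 (plus) for CCN1, chr6:132272513-132272762 (minus) for CCN2 and chr10:92680845-92681094 (minus) for ANKRD1. That of AMOTL2 overlaps annotated exons and is not printed.
YAP1 upstream: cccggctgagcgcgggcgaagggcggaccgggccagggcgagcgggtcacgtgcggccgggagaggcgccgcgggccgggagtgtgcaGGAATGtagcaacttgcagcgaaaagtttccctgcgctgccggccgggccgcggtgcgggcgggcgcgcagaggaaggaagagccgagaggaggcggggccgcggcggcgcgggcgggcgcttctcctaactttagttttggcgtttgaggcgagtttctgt
CCN1 upstream: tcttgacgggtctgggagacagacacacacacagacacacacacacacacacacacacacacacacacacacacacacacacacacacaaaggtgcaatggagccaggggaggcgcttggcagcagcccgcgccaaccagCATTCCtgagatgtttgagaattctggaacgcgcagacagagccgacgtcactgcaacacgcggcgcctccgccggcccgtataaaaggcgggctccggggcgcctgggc
CCN2 upstream: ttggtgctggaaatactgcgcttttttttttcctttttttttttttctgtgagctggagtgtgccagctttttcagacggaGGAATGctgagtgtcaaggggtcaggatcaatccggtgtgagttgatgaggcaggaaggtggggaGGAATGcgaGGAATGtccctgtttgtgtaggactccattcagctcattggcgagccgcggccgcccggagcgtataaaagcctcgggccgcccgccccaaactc
ANKRD1 upstream: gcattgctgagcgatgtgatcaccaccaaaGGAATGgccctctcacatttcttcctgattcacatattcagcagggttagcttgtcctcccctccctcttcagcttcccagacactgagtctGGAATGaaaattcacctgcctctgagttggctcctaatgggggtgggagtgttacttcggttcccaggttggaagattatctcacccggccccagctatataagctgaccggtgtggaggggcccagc

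In these stretches the YAP1 match began 162 bases before the TSS, the CCN1 match 110 and the AMOTL2 match 69. The 3 CCN2 matches began 169, 104 and 95 bases before the TSS, all on the strand of the gene, and the last 2 were separated by 3 bases. The 2 ANKRD1 matches began 220 and 128 bases before it. Both CCN2 and ANKRD1 had promoter peaks in replicate 2 of each cell type and in neither replicate 1 library. The matches thus stood in merged regions called in 1 library of each cell type. Whether each library's own peak covered them was not checked.

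The 4 gained regions were distal and unequal in score. At CCN2 the region chr6:132275508-132276575 lay 2996 bp upstream of the TSS, between genes, and had percentiles of 59 and 59.8 in G12V replicates 1 and 2. At AXL the region chr19:41731829-41732567 lay in an intron 6701 bp downstream of the TSS, with 56.1 and 37.3. These were mid-list peaks in both G12V libraries. The gained region of WWTR1 (chr3:149297550-149298538), in an intron 77274 bp downstream of the TSS, had 4.28 and 0.178, which is close to the calling threshold in both lists. That of AMOTL2 (chr3:134047129-134047617), 45672 bp downstream and outside the gene, had 1.91 and 23.5. It lay beside a region ending at chr3:134047071 that was called in both MCF10A libraries and in G12V replicate 2, at 6.5, 58.7 and 82.9.

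The 4 lost regions were distal as well. At YAP1 the region chr11:101935186-101935591, in an intron of CFAP300 and 45587 bp upstream of the YAP1 TSS, had percentiles of 54.9 and 72.7 in MCF10A replicates 1 and 2. A further YAP1 region (chr11:102094419-102095141), in an intron 113241 bp downstream of the TSS, had 47 and 88.3. At CCN1 the region chr1:86037550-86038289, 8155 bp upstream of the TSS in an intron of DDAH1, had 76.6 in both MCF10A libraries. Averaged over the libraries that had them, these 3 regions stood at 63.8, 67.7 and 76.6, where the gained regions of CCN2 and AXL stood at 59.4 and 46.7 in other lists. At WWTR1 the region chr3:149265888-149266509, in an intron 109303 bp downstream of the TSS, had 32.9 and 31.2, the lowest of the lost regions.

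Gained regions were found near 4 of the 9 genes and lost regions near 3 of 9, with WWTR1 in both groups. Over all protein-coding genes 16.0% had a gained region nearby and 10.0% a lost one. Genes with more regions have more chances, and among the 11494 protein-coding genes with 5 to 13 regions, the range of the 9 genes, the shares were 21.0% and 12.2%. No test was made on so few genes.

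The classes changed when the lists were made equally long. With the 12888 best peaks of each library, 46 regions were near the 9 genes, of which 2 were gained and 3 were lost, 4.35% and 6.52%. Over all 26133 regions of such lists 5.24% were gained and 5.19% were lost. Both YAP1 regions and the CCN1 region stayed lost, and none of the 4 gained regions above stayed gained. Those of CCN2 and AXL were then called in G12V replicate 1 only, and those of WWTR1 and AMOTL2 in no library. The cut was deepest in G12V replicate 2, with 12888 kept of 46698, and every gained region needs a peak there. In the better-scoring 50% of each list the CCN2 region stayed gained, and the CFAP300 intron region near YAP1 and the CCN1 region stayed lost. The other YAP1 region and the AXL region were then called in a single library. The lost WWTR1 region and the gained WWTR1 and AMOTL2 regions had no peak.

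The bases at the centre of the gained and lost regions with a TEAD core, and of the best-scoring others with one, are printed from GRCh37 (hg19) on the plus strand, 150 bases at the midpoint of each region's best-ranked peak, with TEAD cores and AP-1 patterns in capitals (TGAGTCA is the AP-1 pattern on the other strand). They are chr6:132275967-132276116 (CCN2, gained), chr19:41731984-41732133 (AXL, gained), chr3:149266130-149266279 (WWTR1, lost), chr3:149375984-149376133 (WWTR1 promoter, all libraries), chr3:134146364-134146513 (AMOTL2, 3 libraries) and chr1:86073054-86073203 (CCN1, 3 libraries).
CCN2 distal: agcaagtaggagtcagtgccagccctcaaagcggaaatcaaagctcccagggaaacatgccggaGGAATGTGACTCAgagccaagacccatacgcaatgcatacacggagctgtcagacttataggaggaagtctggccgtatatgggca
AXL distal: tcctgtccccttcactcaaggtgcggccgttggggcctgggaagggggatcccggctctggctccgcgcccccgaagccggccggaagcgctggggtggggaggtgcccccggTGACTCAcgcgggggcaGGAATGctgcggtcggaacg
WWTR1 distal: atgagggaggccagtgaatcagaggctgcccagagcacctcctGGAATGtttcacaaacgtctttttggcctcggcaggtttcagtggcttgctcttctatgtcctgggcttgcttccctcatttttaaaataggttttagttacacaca
WWTR1 promoter: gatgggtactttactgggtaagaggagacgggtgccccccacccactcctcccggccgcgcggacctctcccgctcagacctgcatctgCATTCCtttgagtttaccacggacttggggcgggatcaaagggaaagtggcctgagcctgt
AMOTL2 distal: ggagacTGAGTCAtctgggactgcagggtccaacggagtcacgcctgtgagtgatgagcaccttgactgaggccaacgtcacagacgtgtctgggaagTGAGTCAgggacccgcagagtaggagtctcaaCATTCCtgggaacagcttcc
CCN1 distal: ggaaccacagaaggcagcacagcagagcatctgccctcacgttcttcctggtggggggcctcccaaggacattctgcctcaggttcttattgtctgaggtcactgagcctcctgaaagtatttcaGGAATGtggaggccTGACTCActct

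In the gained CCN2 window the TEAD core was followed directly by the AP-1 pattern, with 0 bases between them. In the gained AXL window both were present, 10 bases apart. The lost WWTR1 window held a TEAD core and no AP-1 pattern, and no core was found in the windows of the other 3 lost regions or of the gained WWTR1 and AMOTL2 regions. The CCN1 window, 25865 bp downstream of the TSS, held both at 8 bases apart, and the AMOTL2 window, 52608 bp upstream of the TSS, held a TEAD core and 2 AP-1 patterns.

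A TEAD core was found in 19 of the 87 windows near the 9 genes, 21.8% (Wilson interval 14.5 to 31.6), against 11% of 60886 windows. AP-1 patterns were found in 14 windows, 16.1% (9.83 to 25.2), against 15.8%. Both were found in 7 windows, 8.05% (3.95 to 15.7), against 2.02%. In 3 of these 7 the matches touched or overlapped, in 3.45% of windows near the 9 genes against 0.248% of all, an arrangement counted after the windows had been seen. They were the gained CCN2 region, a CCN2 region 44497 bp upstream of the TSS called in replicate 2 of both cell types (47.6 and 64.6), and an ANKRD1 region 73170 bp downstream called in G12V replicate 2 only (47.8). Median GC content was 48.7% in the windows near the 9 genes and in all windows. The intervals treat the regions as independent, which those of the same gene are not, and the 9 genes include textbook TEAD targets.

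**Figure D4:**
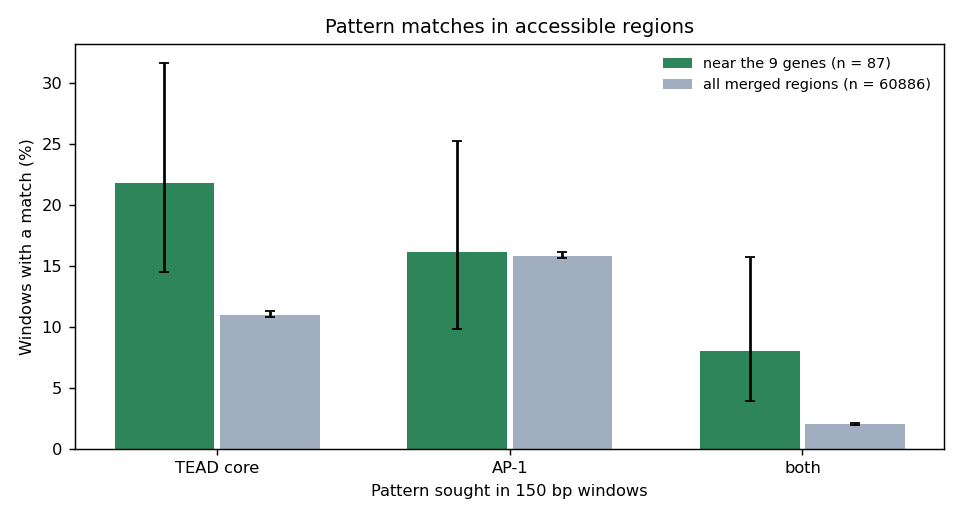
Bars give the percentage of 150 bp windows with a TEAD core, an AP-1 pattern or both, for the 87 regions near the 9 genes (green) and all 60886 regions (grey), with 95% Wilson intervals. The green bar stands above the grey for the TEAD core (21.8% against 11%) and for both (8.05% against 2.02%), and level with it for AP-1 (16.1% against 15.8%).

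TEAD cores were spread over the classes and roles. They were in 12 of the 44 regions called in at least 2 libraries (27.3%) and in 7 of the 43 called in 1 (16.3%). Of all 26558 regions called in at least 2 libraries 10.6% held one, against 11% of all regions. Windows near the target genes CCN1, CCN2, ANKRD1 and AXL held one in 9 of 35 cases (25.7%) and windows near the regulators YAP1, WWTR1, TEAD1, LATS2 and AMOTL2 in 10 of 52 (19.2%). CCN1 had 4 such regions, WWTR1, TEAD1, CCN2 and AMOTL2 had 3 each, YAP1, ANKRD1 and AXL had 1 each and LATS2 had none. By library, 27.8% and 23.8% of the MCF10A regions and 33.3% and 25.4% of the G12V regions held a TEAD core, so the cell types overlapped.

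Several distal regions near CCN1 and AMOTL2 were called in both cell types. The CCN1 region 25865 bp downstream of the TSS (chr1:86072309-86073657) was at 89.3 in MCF10A replicate 2, at 74.5 in G12V replicate 1 and at 98.6 in G12V replicate 2. A neighbour 30967 bp downstream was at 65.1, 86.6 and 87.4 in the same libraries. Neither was called in MCF10A replicate 1, so both G12V libraries and a single MCF10A library had these regions, while the CCN1 promoter itself scored low. The AMOTL2 region 52608 bp upstream (chr3:134145897-134147114) was at 78.8 and 90.9 in MCF10A and at 96.4 in G12V replicate 2, with no call in G12V replicate 1. An AMOTL2 intron region (chr3:134082814-134084174) was called in all libraries, at 3.84 and 63.4 in MCF10A and 27.6 and 89.2 in G12V.

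Distal regions of the other genes varied in the libraries that had them. The WWTR1 region 81069 bp downstream of the TSS was at 81.1 in MCF10A replicate 2, 10.6 in G12V replicate 1 and 96.7 in G12V replicate 2. The CCN2 region 86759 bp downstream, in an intron of ENPP1, was at 77.7 in MCF10A replicate 2 and at 92.4 in G12V replicate 2. For AXL the region with the highest mean (chr19:41769598-41770475), at the promoter of HNRNPUL1, was at 85.2 in MCF10A replicate 2, 12.1 in G12V replicate 1 and 64.6 in G12V replicate 2. Those of YAP1, 909 bp downstream of the TSS (83.7), and of ANKRD1, 39335 bp upstream (83), were called in G12V replicate 2 only. The region of LATS2 called in all libraries lay at the SAP18 promoter and was at 18.4 and 34 in MCF10A and at 50.4 and 65.4 in G12V.

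TEAD1 held 12 regions with a different make-up, in that 11 lay in its gene body and none was gained, lost or called in 3 or more libraries. G12V replicate 2 had 10 of them, MCF10A replicate 2 had 4, G12V replicate 1 had 2 and MCF10A replicate 1 had 1. The 4 regions common to both replicate 2 libraries went from 25.8 to 68.5, from 19.2 to 60.3, from 67.8 to 22.4 and from 13.2 to 19.2 between MCF10A and G12V. They did not go one way, and no TEAD1 region passed a percentile of 68.5 in any library.

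Over the 4 regions called in all libraries, which were the YAP1 and WWTR1 promoters, the AMOTL2 intron and the SAP18 promoter near LATS2, the mean percentile was 48.6 and 68.6 in MCF10A replicates 1 and 2 and 49.5 and 85.7 in G12V replicates 1 and 2. The groups overlapped. The means were 58.6 ± 14.1 in MCF10A and 67.6 ± 25.5 in G12V (SD, n = 2), and the difference of 9.05 was smaller than either spread (exact two-sided permutation p = 0.667). Without MCF10A replicate 1 or without G12V replicate 2 the sign of the difference changed, to -0.169 and -9.01.

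The longer lists allowed a finer comparison within replicate 2, where 32 regions near the 9 genes had a peak in both cell types. The list percentile was higher in G12V in 27 of them (84.4%), with a median difference of 15.1 points. Over all 22104 regions common to these libraries it was higher in 63.1%, with a median of 4.93, and the G12V list is the longer of the pair. When only the common regions were ranked, 23 of 32 were higher in G12V (71.9%), against 49.9% of all, with a median difference of 13.4 points against -0.0238 and a range from -47.6 to 46.5. This compares 1 library with 1 library, so it has no replicate check and says nothing of the cell types. In replicate 1 only 4 regions were common, of which 3 were higher in G12V and the YAP1 promoter was lower, by -57.7 points, where 55.1% of 5394 common regions were higher.

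**Figure D5:**
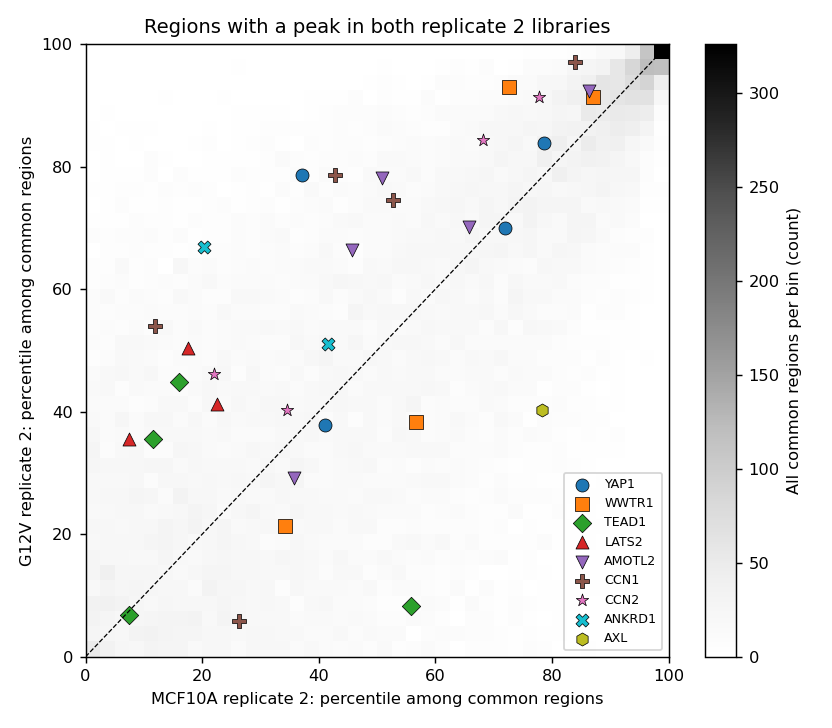
Each symbol is a region near one of the 9 genes called in both replicate 2 libraries, with its percentile among common regions in MCF10A on the horizontal axis and in G12V on the vertical axis, over the density of all 22104 common regions in grey. Above the dashed line of equal rank lie 23 of the 32 symbols, and the AXL symbol and a TEAD1 symbol lie farthest below it.

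By gene, ranked among common regions of replicate 2, all regions were higher in G12V for CCN2 (4 of 4), LATS2 (3 of 3) and ANKRD1 (2 of 2), and most were for CCN1 and AMOTL2 (4 of 5 each). YAP1, WWTR1 and TEAD1 each had 2 of 4, and the single AXL region was lower, by -37.8 points. The largest differences upward were at ANKRD1 (46.5, at the RPP30 promoter), at CCN1 3221 bp upstream of the TSS (42.1) and at YAP1 98861 bp upstream (41.5). Target genes had 10 of 12 higher, with a median of 14.9 points, and regulators 13 of 20, with a median of 5.7. The difference between these roles was not tested.

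The remainder of the pathway was described with a list of 35 other genes. They had 350 regions, of which 12 were gained (3.43%, background 3.18%) and 6 were lost (1.71%, background 2.00%). Of the 350, 34 were called in all libraries, where the background was 9.21%. A gained region lay near 9 of the 35 genes, where 16.0% of protein-coding genes have one, and a lost region near 4, where 10.0% have one. The 35 genes had a median of 8 regions against 6 for all protein-coding genes, so they had more chances. Among protein-coding genes with 5 to 13 regions the shares were 21.0% and 12.2%, though not all of the 35 genes fall in that range. Of their promoters 30 had a peak in at least 1 library (background 53.1%), 10 in all 4 (15.4%) and 8 in replicate 2 of both cell types only (11.5%). The promoter of STK4, which encodes a Hippo kinase upstream of LATS2, was gained, at 12.4 and 47.1 in G12V replicates 1 and 2 (chr20:43594919-43595402), where 0.876% of protein-coding promoters were gained. No promoter of the list was lost. No peak was called at the promoters of AMOT, TEAD3, VGLL1, FOXF2 and ARHGEF17.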

How the data were processed

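ATAC-seq peak lists of 4 libraries were analysed. Per the study's methods, the authors aligned reads to hg19 with bowtie (0.12.9) and called peaks with MACS (1.4.2) at a p threshold of 0.0001. The deposited score is 10 times the negative log10 of that p, with a lowest value of 40 in each list. The values are peak calls per library and not read counts, so no count test was made and depth limits presence.

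Overlapping peaks (1 bp or more) of all libraries on the 22 autosomes and X were merged into regions. Genes and canonical TSSs were from GENCODE release 44 mapped to GRCh37. A region's percentile in a library is that of its best peak. Patterns were sought on both strands with 0 mismatches. The longer TEAD pattern has a T on either side of the core. Presence of a peak in each library gave the classes. Group means were compared by exact two-sided permutation tests. Python 3.11.15, numpy 2.4.6, pandas 2.3.3, scipy 1.17.1, pysam 0.24.0 and matplotlib 3.10.9 were used. Tested on simulated data, 100% of 1800 planted regions were placed in their class and 100% of 1000 planted cores were found.

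The members, the pathway and marker lists and the rules were chosen with earlier results of these data known. Regions named are each member's promoter, its gained and lost regions and the region with the highest mean percentile, and of the pathway list genes with a gained or lost promoter. Other named regions, namely CCN1 at 30967 and 3221 bp, the AMOTL2 intron and the region beside the gained one, WWTR1 at 81069 bp, CCN2 at 86759 and 44497 bp, ANKRD1 at 73170 and 48457 bp, YAP1 at 98861 bp, the 4 common TEAD1 regions, the LATS2 region at SAP18, and pathway genes with no promoter peak, were chosen after their values were seen. So were the ranking among common regions, the touching patterns, the genes with 5 to 13 regions and the class shares in equal lists. PECAM1 was not in the annotation used and is not analysed here. The result for 1 marker gene and 1 upstream stretch are not reported here.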

Additional observations from a re-analysis of the deposited data

How the results depend on the processing

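Counts moved with the peaks kept and the libraries used. In the better-scoring 50% of each list 3 regions were gained and 2 were lost, against 4 and 4. There 1 region and 1 promoter were called in all libraries, against 4 and 2. Of the 3 gained regions only that of CCN2 was among the 4 gained in the full lists. No share over all regions stands beside these counts. With equally long lists 2 regions were gained, 3 were lost and 3 were called in all libraries, and 2 promoters were called in all libraries. With a peak in either replicate enough, 38 were gained and 13 lost, with no share over all regions beside these counts. Leaving out 1 library at a time gave 4 to 33 gained regions, namely 33 without G12V replicate 1, 13 when MCF10A replicate 2 was left out and 11 when G12V replicate 2 was. It gave 4 to 9 lost regions, with 9 without either MCF10A library and 7 without G12V replicate 2, and 4 to 13 regions called in all libraries, namely 13 without MCF10A replicate 1 and 7 if G12V replicate 1 was left out. A class then needs fewer libraries, which by construction raises these counts. With 1 library left out, peaks per 10000 stayed higher in G12V by 0.674 to 3.9, and without G12V replicate 1 the difference was 0.674 in place of 2.29. The G12V minus MCF10A difference in mean percentile of regions called in all libraries ranged from -9.01 to 28.7, with the sign reversed when MCF10A replicate 1 (-0.169) or G12V replicate 2 (-9.01) was left out, and was 19 without MCF10A replicate 2 and 28.7 without G12V replicate 1. Promoters called in all libraries numbered 2 to 3, and 17.5% to 24.1% of windows held a TEAD core. Searching whole regions gave 50.6%, against 34.8% of all regions, and the longer TEAD pattern 4.6%, against 1.17%. Wider regions have more chances in a whole-region search, and median width was 625 bp near the 9 genes against 547 bp for all. Among regions called in at least 2 libraries the whole-region shares were 61.4% near the 9 genes and 41.6% of all. The cause of the changes between settings was not tested.

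Replicate numbers are shared between the cell types but the labels do not tie them to a batch. With a replicate block, in which peaks were merged within each pair alone, 21 regions were gained and 15 lost in the replicate 1 pair, and 36 and 10 in the replicate 2 pair, and the paired differences kept their means of 2.29 and 9.05 (exact sign-flip p = 0.5, the smallest possible with 2 pairs). Deviations from the group means within replicate numbers correlated at 0.142 in percentile, with a missing peak set to 0, and at -0.113 in presence, over 60886 regions. Crossed pairs, added after seeing the data, gave 58 gained and 9 lost (MCF10A replicate 1 with G12V replicate 2) and 11 gained and 31 lost. The lists within a pair differ in length, and no share over all regions stands beside these pair counts. They are therefore not read as a trait of the 9 genes. A stricter overlap, every transcript start and a 50 kb limit moved no count by over 1.5 times and turned no sign. The difference in peaks per 10000 was 5.92 in the better-scoring 50% of each list, 1.55 with equal lists, 1.04 with every transcript start and 1.44 within 50 kb, and the percentile difference was 5.96 with equal lists and 1.5 within 50 kb, with exact p from 0.333 to 1.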
